A study of Drosophila melanogaster with 22 samples.

Results

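Mushroom body and antennal lobe neuroblasts, the neural stem cells of 2 brain regions, were compared in 3 libraries each, 6 of the 22 libraries of a Drosophila larval RNA-seq series. The 6 libraries were chosen by their labels, which name the region, a neuroblast cell type and an age of 50 h after hatching, and carry no mark of a wait or of washes. Both groups were treated alike per the labels. Larvae hatched within 2 h of each other grew at 25 °C, 30 brains were dissociated with pronase and dispase, a robot picked GFP-labelled cells, and RNA came from pools of these. The mushroom body libraries were made from 89, 101 and 107 cells and the antennal lobe libraries from 106, 115 and 121 cells. The genotype of the flies, the drivers that labelled each lineage and whether the cells of a region came from several neuroblast lineages were not given in the labels. They also do not say whether replicates were dissected separately, so the p-values measure a spread between libraries that may be technical. That spread was estimated over 12 standard neuroblast libraries, with type II and pooled neuroblasts included.

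Larval neuroblasts renew themselves and bud off smaller daughter cells, and each lineage makes a characteristic series of neurons. Mushroom body neuroblasts make Kenyon cells, the intrinsic neurons of the learning and memory centre, and are known for dividing long after other brain neuroblasts have stopped. Antennal lobe neuroblasts make projection neurons and local interneurons of the first olfactory centre, and their temporal programme is known to run through its stages earlier than that of the mushroom body lineages.

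The mushroom body libraries held 3150371 to 4161921 counts in annotated genes and the antennal lobe libraries 7771032 to 8947555, with 10646 to 11022 and 10677 to 11002 genes detected. Log CPM (counts scaled to library size and by the trimmed mean of M values) correlated at 0.908 to 0.910 within the mushroom body group, 0.902 to 0.915 within the antennal lobe group and 0.856 to 0.876 between groups. The lineage markers were in place: retn, Rx and tll were higher in each mushroom body library than in any antennal lobe library, and ems, mid and SoxN the reverse. Markers shared by neuroblasts (wor, dpn, ase, mira, grh and klu) summed to 2474 to 3079 CPM in mushroom body and 3751 to 4152 CPM in antennal lobe libraries. Neuron markers summed to 331 to 393 and 366 to 432 CPM, and glial markers to 479.6 to 498 and 454 to 498 CPM. Most of the neuron sum was elav, at 218 to 304 CPM over the 6 libraries. Most of the glial sum was nrv2, at 262 to 356 CPM, and Eaat1, at 107 to 214 CPM. The glial genes repo and gcm did not pass 2.31 and 1.45 CPM. No marker of these or of blood, fat body or muscle was at 0 in all 6 libraries.

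Mushroom body neuroblasts had 544 genes higher and 551 lower among 9249 genes tested, which is 11.8% of the genes in all, 5.88% higher and 5.96% lower (edgeR quasi-likelihood test, Benjamini-Hochberg adjusted p below 0.05). These shares are the background against which counts of list members are read below. Among the called genes 288 were over 2-fold higher and 239 over 2-fold lower, and 45 were over 32-fold higher and 21 over 32-fold lower. The median log2 change over all genes tested was 0.03. Libraries of the groups did not overlap for 29.2% of all genes, with every mushroom body library on top for 15.2% and every antennal lobe library on top for 14%. With libraries scaled to the ERCC spike-in per cell instead, 70 genes were higher and 212 lower, 24.8% of the calls higher against 49.7% before, and the median of all genes moved to -0.36. That fit took its spread from 12 libraries, the type II libraries included. Gene counts per ERCC count and cell were 6.71, 2.72 and 2.50 in type II replicates 1, 2 and 3. How far this spread accounts for calls lost with ERCC scaling, here and below, was not tested. Gene length moved with the contrast: the median log2 change was 0.27 over the shortest 10% of genes and -0.18 over the longest 10%, and 17.4% of the longest were called lower against 4.54% called higher.

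**Figure D1:**
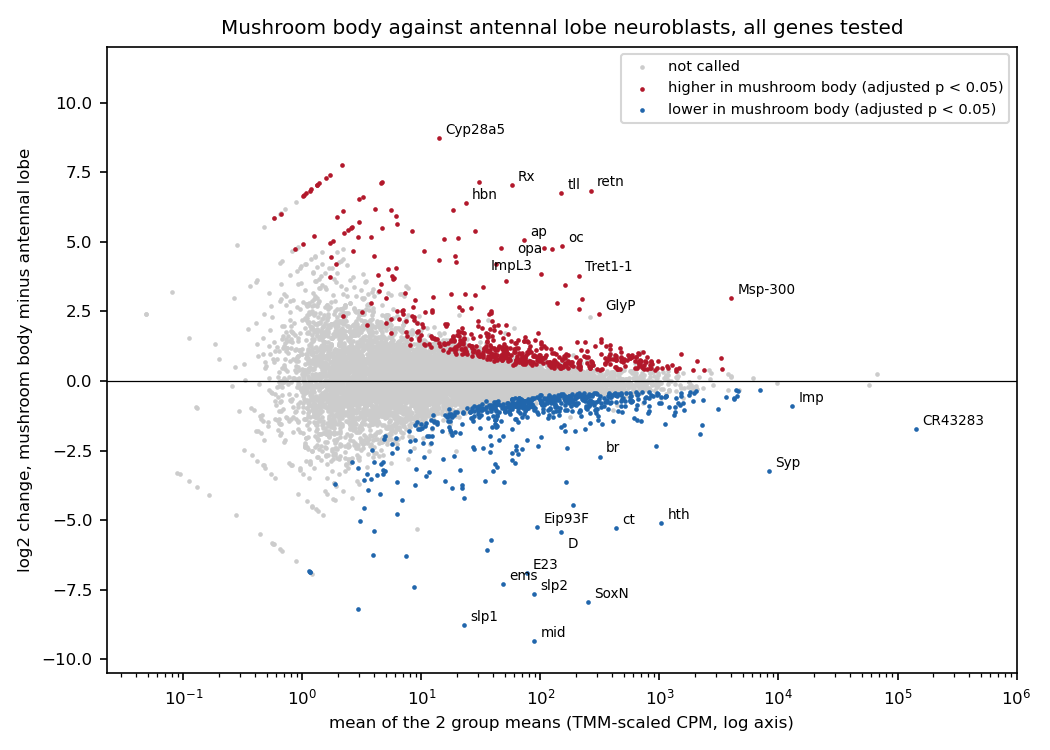
Log2 change (mushroom body minus antennal lobe, vertical axis) of each of the 9249 genes tested against its mean level (CPM, log axis). Red points are the 544 genes called higher and blue points the 551 called lower, with lineage factors at the top and bottom and Syp, Imp and CR43283 among the most abundant genes called lower.

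Transcription factors of the mushroom body lineage stood far higher in mushroom body than in antennal lobe neuroblasts. Of 8 factors listed for that lineage, 7 were higher in mushroom body neuroblasts and none was lower, with a median log2 change of 3.74 over the 8. The DNA-binding protein gene retn (chromosome 2R, 19520135 to 19542343, in the dm3 build as are all positions here, FBgn0004795) was counted at 558, 438 and 573 CPM in the 3 mushroom body libraries and at 5.76, 4.14 and 3.76 CPM in the 3 antennal lobe libraries. The homeobox gene Rx (chromosome 2R, 16804285 to 16824537) stood at 93.7, 108 and 141 CPM against 0.549, 0.999 and 1.0 CPM. For both genes every mushroom body library lay far above every antennal lobe library, with log2 changes of 6.84 ± 0.48 (SE; adjusted p = 2.39e-06) for retn and 7.03 ± 0.45 (adjusted p = 2.88e-11) for Rx. In RNA from pooled cells, less of it in each cell and fewer cells that carry it cannot be told apart. The orphan nuclear receptor gene tll (chromosome 3R, 26678037 to 26680095), known to keep mushroom body progenitors dividing, was at 247, 331 and 308 CPM in mushroom body and 2.88, 2.43 and 2.88 CPM in antennal lobe libraries, a log2 change of 6.74 ± 0.22 (adjusted p = 2.29e-17). Its level in type II neuroblasts, whose lineages hold intermediate progenitors, was 327 CPM, with no call between mushroom body and type II, a contrast with 10.4% of genes called (log2 -0.15, adjusted p = 0.628).

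The LIM-homeobox gene ap, which also marks Kenyon cell subtypes, was at 129.8, 137 and 156 CPM against 4.39, 6.99 and 1.38 CPM, with log2 5.06 ± 0.52 (adjusted p = 7.6e-06). The paired Pax6 genes toy and ey both rose, toy by log2 2.42 ± 0.28 (adjusted p = 1.46e-06) and ey by 1.39 ± 0.41 (adjusted p = 0.0413). Antennal lobe libraries were not without ey, at 35.1, 43 and 51.8 CPM against 109.6, 106 and 125 CPM in mushroom body, and the groups did not overlap. The call for ey was lost in 10 of the 21 other settings, among them each setting that left out 1 library. The nuclear cofactor gene dac rose by log2 1.97 ± 0.47 (adjusted p = 0.00726), with 23.4, 41.3 and 78.9 CPM in the mushroom body libraries. Without mushroom body replicate 3, the highest of them, it was not called (adjusted p = 0.089). The nuclear receptor gene Hr51, which acts later in Kenyon cell maturation, was the member not called, at 9.12 ± 2.68 against 6.25 ± 2.39 CPM (SD, n = 3), with a 95% interval of -0.76 to 1.84 for its log2 difference.

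Segmentation and head-patterning genes differed in both directions. Of 32 tested, 5 were higher in mushroom body neuroblasts, 6 were lower (slp1, slp2, hkb, ems, Dr and run, described below) and 21 were not called, with a median log2 change of 0.01. With no filter on low counts 9 were higher and with DESeq2 8, each with 6 lower. The homeobox gene oc, listed among the antennal lobe factors, was at 306, 263 and 304 CPM against 10.8, 3.43 and 15.9 CPM, log2 4.84 ± 0.69 (adjusted p = 0.00206), so this member moved against the direction of its list. The Zic family gene opa, a factor of intermediate progenitors in type II lineages, was at 244, 213 and 272 CPM in mushroom body, 8.37, 5.0 and 13.5 CPM in antennal lobe and 1.52 CPM on average in type II libraries. The opa difference was log2 4.75 ± 0.67 (adjusted p = 0.00161), and opa carried most of the type II marker sum, 239 to 329 CPM against 32.5 to 42.7 CPM. Outside the list, the homeobox gene hbn rose by log2 6.39 ± 0.64 (adjusted p = 1.08e-07). Lower down, vnd, a homeobox gene of ventral neuroblasts, had 99 counts over the mushroom body libraries and 2 over the antennal lobe libraries, a depth-scaled ratio of 92.8 (95% counting interval 25 to 777). The spalt gene salm had 115 against 1, but mushroom body replicate 3 alone stood at 22.5 CPM, and the call was lost in limma on TPM (adjusted p = 0.072).

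Antennal lobe neuroblasts carried a different set. Of 10 tested factors listed for that lineage, 5 were lower in mushroom body neuroblasts (mid, SoxN, ems, hkb and Dr), oc was higher and 4 were not called, and the median log2 change was -4.26. The T-box gene mid (chromosome 2L, 5461641 to 5466829, FBgn0261963) stood at 164, 209 and 160.4 CPM in the antennal lobe libraries, and the mushroom body libraries held 0.578, 0.241 and 0 CPM. Over each group this was 3936 counts against 3, a depth-scaled ratio of 699-fold with a counting interval of 239 to 3393. That interval covers counting error alone, and the fitted change was smaller in mushroom body libraries labelled with a wait or washes, as given below. Its neighbouring T-box relative H15 stood at 4.80, 6.99 and 4.14 CPM against 0, 1.69 and 0.468 CPM and was not called by edgeR (adjusted p = 0.157), though it was by limma on TPM (adjusted p = 0.00955). Reads shared by the pair were not separated.

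The homeobox gene ems (chromosome 3R, 9727581 to 9730346), needed for antennal lobe neuroblasts and their projection neurons, was counted at 77.5, 105 and 106 CPM against 0.578, 0 and 1.17 CPM in mushroom body, log2 -7.30 ± 0.67 (adjusted p = 8.85e-07). Both zinc finger gene hkb and homeobox gene Dr belong to early embryonic neuroblast patterning. The antennal lobe libraries held hkb at 64.4, 63.2 and 83.5 CPM and Dr at 56, 87.9 and 81.6 CPM, while no mushroom body library passed 1.69 CPM of hkb or 1.64 CPM of Dr. Their log2 changes were -6.08 ± 0.65 (adjusted p = 8.02e-07) and -5.70 ± 0.46 (adjusted p = 2.56e-09). In type II neuroblasts mid, ems, hkb and Dr were also low, at means of 0.145, 0, 0.558 and 0.807 CPM. Of the members not called, the POU gene acj6 stood at 11.1, 6.14 and 2.76 against 6.07, 4.34 and 0.936 CPM, Lim1 at 5.21, 12.8 and 1.50 against 1.16, 3.86 and 0 CPM and vvl, a POU gene, at 162, 138 and 112 against 195, 140.0 and 208 CPM. The groups overlapped for each of these 3.

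SoxB genes, HMG-box factors that hold neural progenitors in their state, were low in mushroom body neuroblasts. SoxN (chromosome 2L, 8825625 to 8829670) was at 510.2, 511 and 475 CPM in antennal lobe libraries and 1.73, 0.965 and 3.28 CPM in mushroom body libraries, log2 -7.94 ± 0.25 (adjusted p = 2.19e-17). D, also called Dichaete, was at 221, 368 and 286 CPM against 7.81, 6.76 and 6.09 CPM, log2 -5.41 ± 0.26 (adjusted p = 5.17e-14). Every antennal lobe library exceeded every mushroom body library by a wide margin for both genes. Mean levels in type II neuroblasts were 389 CPM for SoxN and 83.6 CPM for D, both above the mushroom body level (log2 -7.58, adjusted p = 2.97e-17, and -3.60, adjusted p = 1.56e-10). The remaining SoxB genes were too low to test, Sox21a with 0 counts against 39 and Sox21b with 3 against 54.

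The forkhead genes slp1 and slp2 lie next to each other on chromosome 2L and act in the temporal series of optic lobe neuroblasts. Both were low in mushroom body neuroblasts too. The antennal lobe libraries held slp1 at 36, 50.4 and 49.1 CPM and slp2 at 194, 156 and 179 CPM. In mushroom body libraries slp1 had 1 count in all, a ratio of 537-fold (counting interval 96.1 to 21226), and slp2 was at 2.89, 0 and 0 CPM, log2 -7.65 ± 0.76 (adjusted p = 7.08e-05). All 10 slp2 counts came from mushroom body replicate 1.

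**Figure D2:**
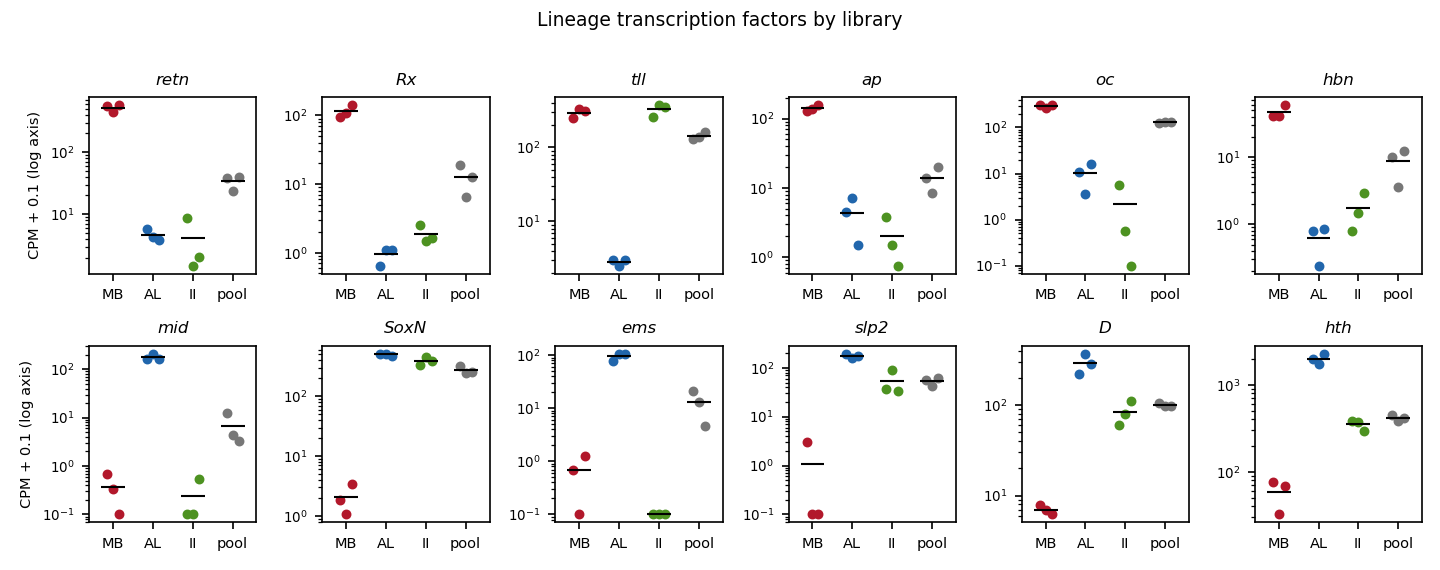
CPM plus 0.1 (log axis) of 12 lineage factors in each mushroom body (MB), antennal lobe (AL), type II (II) and pooled neuroblast (pool) library, with group means as lines. The upper row holds genes higher in mushroom body and the lower row genes higher in antennal lobe, and the 3 libraries of MB and AL do not overlap for any of them.

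Among 49 tested homeobox and POU genes, 7 were higher and 8 lower in mushroom body neuroblasts, 30.6% against 11.8% of all genes, and the median log2 change was -0.33. The homeobox gene ct, which later sets dendrite patterns, was at 964, 782 and 788 CPM in antennal lobe and 29.2, 12.8 and 24.1 CPM in mushroom body libraries, log2 -5.27 ± 0.28 (adjusted p = 5.98e-09). The TALE homeobox gene hth, a cofactor of Hox proteins, was at 1975, 1767 and 2287 CPM against 75.5, 32.1 and 68.1 CPM, log2 -5.10 ± 0.26 (adjusted p = 4.11e-09). Every mushroom body library lay below every antennal lobe library for both. The Iroquois gene caup had 1 count against 396, a ratio of 211 (counting interval 37.7 to 8360), and run, a Runt-domain gene, 1 against 176. Among retinal determination genes ey, toy and dac were higher, while so and its partner eya were lower. The homeobox gene so fell (log2 -2.69 ± 0.50, adjusted p = 0.000561), and eya, at 8.65, 25 and 2.88 CPM in the antennal lobe libraries, was not called once mushroom body replicate 1 or 2 was left out. Of the Hox genes 3 were tested and none was called by edgeR.

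Temporal genes separated the lineages as well. Of 10 tested temporal factors, 5 were lower in mushroom body neuroblasts (Syp, Imp, br, Eip93F and svp), 2 were higher (cas and lin-28) and 3 were not called. The RNA-binding protein gene Syp (chromosome 3R, 16582451 to 16631963, FBgn0038826), which is known to rise late in neuroblast lineages, was at 1601, 1454 and 1725 CPM in mushroom body and 14445, 14492 and 16218 CPM in antennal lobe libraries. All antennal lobe values lay far above the mushroom body values, log2 -3.24 ± 0.12 (adjusted p = 2.81e-16). Mean Syp was 31267 CPM in type II and 14963 CPM in pooled neuroblasts, so mushroom body was the lowest of the 4 groups and antennal lobe lay below type II (log2 -1.05, adjusted p = 4.47e-07, with 11.4% of genes called). The genes CG31195 and Takl1 overlap Syp, and the strand setting of the counting is not given.

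The early counterpart Imp (chromosome X, 10690246 to 10700889), which opposes Syp, was also lower in mushroom body, at 9664, 7722 and 9604 CPM against 20559, 15368 and 14839 CPM. The groups did not overlap, and the log2 change was -0.91 ± 0.13 (adjusted p = 2.06e-05). With ERCC scaling the Imp change kept its sign but was not called (adjusted p = 0.078). The BTB zinc finger gene chinmo, a target of both proteins, was not called, at 1955, 1462 and 2256 CPM against 2464, 2081 and 1860.4 CPM, with an interval of -0.59 to 0.24 for the log2 difference. Another BTB gene, mamo, stayed below 10.2 CPM in all 6 libraries and was not called either (adjusted p = 0.747).

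Genes of later temporal windows, br and Eip93F, were low in mushroom body neuroblasts, and svp was low too. The broad-complex gene br (chromosome X, 1516765 to 1539195) was at 76.6, 117 and 55.9 CPM against 515, 539.9 and 579 CPM, log2 -2.71 ± 0.19 (adjusted p = 4.78e-10), and Eip93F (chromosome 3R, 17801348 to 17837910), a late factor, at 4.05, 5.79 and 4.45 CPM against 139, 168 and 242 CPM, log2 -5.25 ± 0.85 (adjusted p = 0.00412). The orphan receptor gene svp was at 105, 61.3 and 94.3 CPM against 368, 307 and 235 CPM, log2 -1.81 ± 0.26 (adjusted p = 0.000232). Libraries of the groups did not overlap for these 3 genes. The gene lin-28, which encodes an RNA-binding protein of stem cells, was higher. It stood at 130.4, 119 and 146 CPM against 59.1, 62.1 and 20.8 CPM, log2 1.48 ± 0.30 (adjusted p = 0.0018). The zinc finger gene cas was at 34.4, 69.3 and 48.9 CPM against 8.23, 21.6 and 11 CPM, log2 1.91 ± 0.46 (adjusted p = 0.0203), and its call was lost without mushroom body replicate 2 or 3 or antennal lobe replicate 1 or 3 (adjusted p up to 0.0944). The early factor Kr was at 4.34, 9.65 and 24.6 CPM against 2.61, 0.714 and 1.25 CPM and was not called (adjusted p = 0.14), but it was called with DESeq2 (adjusted p = 0.0299), with the 6 libraries alone (0.00603), with no filter on low counts (0.00287) and without the type II libraries (0.0371). These lists hold long genes, with a median length of 5.76 times that of the median tested gene for the temporal list. With the length trend taken out the same counts, 5 lower and 2 higher, were called.

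**Figure D3:**
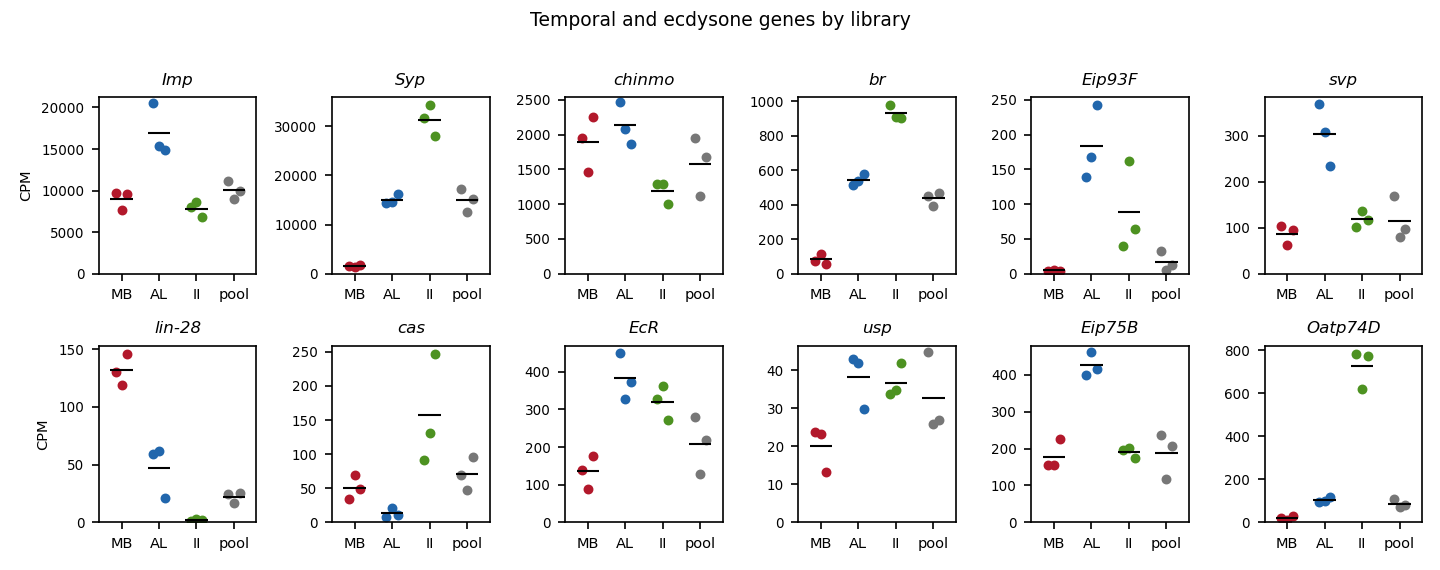
CPM of 12 temporal and ecdysone genes in each mushroom body (MB), antennal lobe (AL), type II (II) and pooled neuroblast (pool) library, on linear axes from 0, with group means as lines. Syp, br, Eip93F, svp, EcR, usp, Eip75B, Oatp74D and Imp were lower in MB than in AL, lin-28 and cas were higher, and chinmo overlapped between the groups.

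Ecdysone signalling, the steroid hormone system that times larval development, was represented by 18 tested genes, of which 8 were lower and 1 higher in mushroom body neuroblasts. The hormone receptor gene EcR was at 139.6, 89.5 and 176 CPM against 451, 328 and 373 CPM, log2 -1.51 ± 0.28 (adjusted p = 0.00275). Oatp74D, which encodes an importer of the hormone, was at 19.4, 12.1 and 31.1 CPM against 96.1, 98.6 and 119.8 CPM, log2 -2.32 ± 0.25 (adjusted p = 6.37e-06). Both were lower in every mushroom body library than in any antennal lobe library. The response gene Eip75B fell (log2 -1.25 ± 0.20, adjusted p = 0.000239), and br and Eip93F are counted here too, as are usp, Hr39 and tai. Outside the list, the ABC transporter gene E23 (chromosome 2L, 3334871 to 3338447), itself an ecdysone-induced gene, was at 0.578, 0.965 and 2.11 CPM against 134, 187 and 133 CPM, log2 -6.89 ± 0.78 (adjusted p = 0.000223). The member that was higher, ImpL3, is the lactate dehydrogenase gene described next. The list's genes have a median relative length of 3.62, and 7 were called lower with the length trend removed.

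Sugar metabolism stood higher in mushroom body neuroblasts. Of 12 glycolysis genes, 9 were higher and none lower, with a median log2 change of 0.87, and the summed level was 2996 to 3928 CPM against 1956 to 2345 CPM. ImpL3 (chromosome 3L, 6252592 to 6254140), which turns pyruvate into lactate, was at 104.1, 301 and 159.9 CPM against 8.10, 18.7 and 13 CPM, log2 3.83 ± 0.42 (adjusted p = 8.28e-05). Gapdh1 rose by log2 1.25 ± 0.13 (adjusted p = 1.22e-07), Pglym78 by 1.39 ± 0.14 (adjusted p = 1.43e-07) and Pgi by 1.58 ± 0.23 (adjusted p = 4.05e-05), all with no overlap between libraries. The list's genes have a median relative length of 1.07, and 9 were called with the length trend removed. With ERCC scaling 1 of the 12 was called and the median was 0.44.

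Of 18 genes of sugar transport and storage, 4 were higher, 22.2%, and none was lower. The trehalose transporter gene Tret1-1 (chromosome 2R, 7559466 to 7562287) was at 394, 449.6 and 341 CPM against 35.1, 24.1 and 26.3 CPM, log2 3.79 ± 0.21 (adjusted p = 3.39e-12), and its neighbour Tret1-2 rose by 3.37 ± 0.50 (adjusted p = 0.000109). Shared reads of this pair were not separated, and both overlap Roc2. Glycogen phosphorylase, GlyP, which releases sugar from glycogen, was at 431, 498 and 634 CPM against 107, 74.2 and 112 CPM, log2 2.42 ± 0.17 (adjusted p = 2.63e-10). Tret1-1 and GlyP were called under every setting tried. The libraries of the groups overlapped for the phosphoglucomutase gene Pgm (log2 1.78 ± 0.54, adjusted p = 0.0326), which lost its call in 9 of 21 settings.

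The translation inhibitor gene Thor (4E-BP), induced when insulin signalling is low, was at 367, 384 and 431 CPM against 27.6, 60.5 and 63.3 CPM, log2 2.96 ± 0.67 (adjusted p = 0.0237). The groups did not overlap, yet its call was lost when any 1 of the 6 libraries or the type II libraries were left out (adjusted p up to 0.0854). In the same growth lists asparagine-synthetase rose by log2 3.59 ± 0.34 (adjusted p = 1.05e-07), while DOR, a starvation-response coactivator gene, fell, at 13.9, 7.0 and 12.4 CPM against 62.3, 65.1 and 65 CPM, log2 -2.53 ± 0.41 (adjusted p = 0.00015). The insulin pathway kinase gene Akt1 fell (log2 -0.51 ± 0.15, adjusted p = 0.0327), a call lost in 8 settings, and 18 of 22 insulin and TOR genes were not called. The 2 higher and 2 lower in that list became none in either direction by edgeR without antennal lobe replicate 1.

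Ribosomal protein genes were higher as a group in mushroom body libraries under the standard scaling. Of 86 tested cytoplasmic members 68 were higher and none lower, with a median log2 change of 0.68, and 75 had no overlap between groups with the mushroom body libraries on top, against 15.2% of all genes. RpL39 was at 289, 420.2 and 333 CPM against 115, 124 and 151 CPM, log2 1.42 ± 0.16 (adjusted p = 8.85e-07), and RpL7A at 525, 817 and 588 CPM against 235, 240.5 and 377 CPM, log2 1.18 ± 0.23 (adjusted p = 0.00336). These genes are short, with a median relative length of 0.397, and short genes were higher in mushroom body libraries in general. With the length trend removed 30 were higher and 3 lower (median 0.30), and with ERCC scaling none was called by edgeR (median 0.27).

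The same list was lower in washed mushroom body libraries, while waited libraries overlapped the standard ones. In a fit of 18 neuroblast libraries the summed level was 63743 to 77507 CPM in the 3 standard mushroom body libraries, 45919 to 64895 CPM in 3 labelled with a 2 h wait, 42077 to 54164 CPM in 3 labelled with 3 washes and 46562 to 55136 CPM in antennal lobe libraries. Against the same antennal lobe libraries 6 genes were higher and none lower after the wait (median 0.24, with 4.17% of all genes higher and 4.61% lower). After the washes 2 were higher and 2 lower (median -0.04, with 3.2% of all genes higher and 3.64% lower). Standard libraries set directly against washed ones had 52 of the 86 higher (median 0.65, background 0.577% of genes higher), and against waited ones 1 (median 0.38, background 0.0206%). The cause was not tested.

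Summed levels of glycolysis genes overlapped among the 3 kinds of mushroom body library. In that fit their summed level was 3045 to 3990.0 CPM in standard, 3519 to 3905 CPM in waited and 3519 to 3792 CPM in washed mushroom body libraries, against 1994 to 2414 CPM in antennal lobe and 4325 to 4913 CPM in type II libraries. Against antennal lobe 9 were called after the wait and 8 after the washes, and none was called between standard and waited or washed libraries by edgeR, where 0.0309% and 0.711% of all genes were (medians -0.09 and -0.06).

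**Figure D4:**
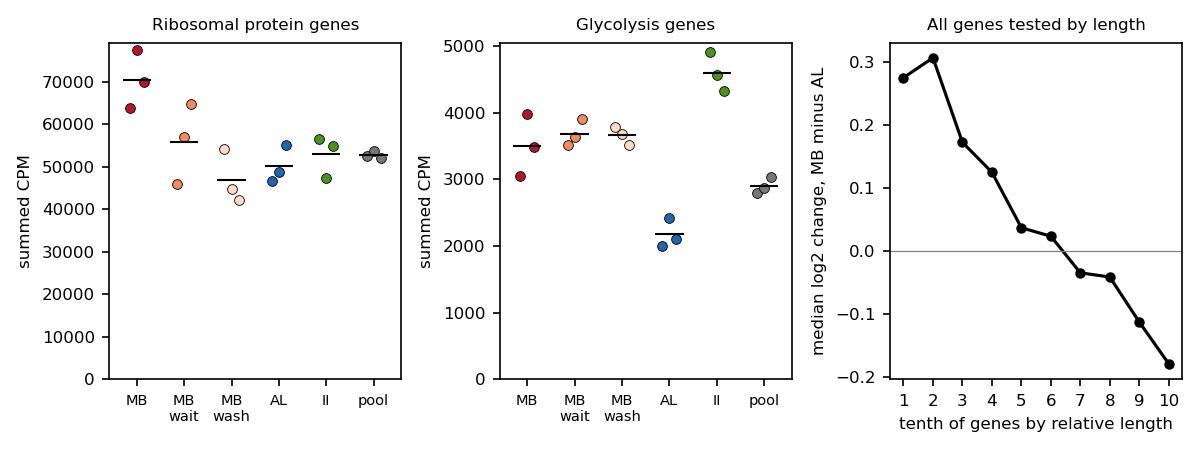
Summed CPM of ribosomal protein genes (left) and glycolysis genes (middle) in each library of 6 neuroblast groups, with group means as lines, and the median log2 change between mushroom body and antennal lobe for all genes tested in 10 bins of relative length (right). Standard mushroom body libraries hold 63743 to 77507 CPM of ribosomal protein genes, and the length medians run from 0.27 in the shortest bin to -0.18 in the longest.

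Mitochondrial genes moved in the same direction with fewer calls. Of 19 oxidative phosphorylation genes 11 were higher and none lower (median log2 0.68), among them ATPsyn-gamma, a subunit of the ATP synthase, at 103, 135 and 107 CPM against 38.6, 49.4 and 54.9 CPM, log2 1.27 ± 0.23 (adjusted p = 0.000416). The succinate dehydrogenase subunit gene SdhC rose by 1.30 ± 0.33 (adjusted p = 0.00934). Mitochondrial ribosomal protein genes had a like median of 0.63, but 7 of 72 were called, 9.72% against a background of 5.88% higher. Both lists hold short genes (median relative lengths 0.558 and 0.375). Leaving out 1 library gave 8 to 9 and 1 to 10 calls, the lowest of the latter without mushroom body replicate 2 and the highest without antennal lobe replicate 3. With the length trend removed 9 and 2 members were called, with length and GC trends removed 5 and 1 were higher, and with ERCC scaling none in either by edgeR. In the fit of 18 libraries 10 oxidative phosphorylation genes were higher in standard, 8 in waited and 4 in washed mushroom body libraries (medians 0.66, 0.49 and 0.44). Of the mitochondrial ribosomal protein genes 5, 3 and 1 were higher (medians 0.61, 0.42 and 0.48). Over all genes 4.17% were higher in waited and 3.2% in washed libraries.

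Most signalling genes that were called were lower in mushroom body neuroblasts. In the JAK and STAT pathway 4 of 5 tested members were lower: the transcription factor gene Stat92E at 76.6, 56.2 and 79.6 CPM against 141, 181 and 173 CPM (log2 -1.22 ± 0.20, adjusted p = 0.000109), the kinase gene hop, and Socs36E and Ptp61F, which both restrain the pathway. Stat92E was called under every setting, while 2 of the 5 were called lower with the length trend removed or by limma on TPM, and 1 without mushroom body replicate 1, without antennal lobe replicate 2 or with ERCC scaling. The activin and BMP list had 5 of 20 lower and none higher, and 3 lower with the length trend removed, with ERCC scaling, without mushroom body replicate 2 or without antennal lobe replicate 1. It includes the effector gene Mad at 28.3, 37.9 and 36.3 CPM against 98.1, 81.6 and 84.8 CPM (log2 -1.37 ± 0.21, adjusted p = 8.27e-05). Dad, an inhibitor induced by the pathway, fell (log2 -2.41 ± 0.48, adjusted p = 0.00161) as did the repressor gene brk (log2 -1.13 ± 0.23, adjusted p = 0.00199). These counts varied with handling. Against antennal lobe in the fit of 18 libraries, 3 of 6 JAK and STAT genes were lower in standard, 2 in waited and 1 in washed mushroom body libraries. Of 20 activin and BMP genes 5, 5 and 2 were lower. Over all genes 4.61% were lower in waited and 3.64% in washed libraries.

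Of 24 EGF and FGF genes, which have a median relative length of 2.06, 6 were lower and 3 with the length trend removed. Without mushroom body replicate 1 or antennal lobe replicate 2 there were 3, without mushroom body replicate 2 there were 2, and with ERCC scaling 1. Among the 6 were the ligand gene spi (log2 -0.99 ± 0.16, adjusted p = 9.87e-05) and S, or Star, which helps to export it (log2 -0.92 ± 0.17, adjusted p = 0.000577). Of 25 EGF and FGF genes tested in the fit of 18 libraries, 5 were lower in standard, 3 in waited and 2 in washed mushroom body libraries. The Wnt list had 3 of 25 higher and 1 lower, 16% called against 11.8% of all genes, and 1 higher with ERCC scaling. Its transcription factor gene pan, the TCF of the pathway, was at 265, 201 and 253 CPM against 34.7, 52.5 and 16.9 CPM, log2 2.79 ± 0.33 (adjusted p = 7.72e-05), with no overlap. The receptor gene drl fell, at 7.23, 11.1 and 7.96 CPM against 59.4, 42.7 and 34.7 CPM, log2 -2.37 ± 0.36 (adjusted p = 5.71e-05). Of 27 Notch pathway genes the receptor gene N fell (log2 -0.66 ± 0.12, adjusted p = 0.000611) as did its inhibitor numb (log2 -1.10 ± 0.14, adjusted p = 3.93e-06), and 25 were not called. That count was 4 lower without mushroom body replicate 3, antennal lobe replicate 1 or the type II libraries, 9 with the 6 libraries alone and 10 with no filter on low counts.

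**Figure D5:**
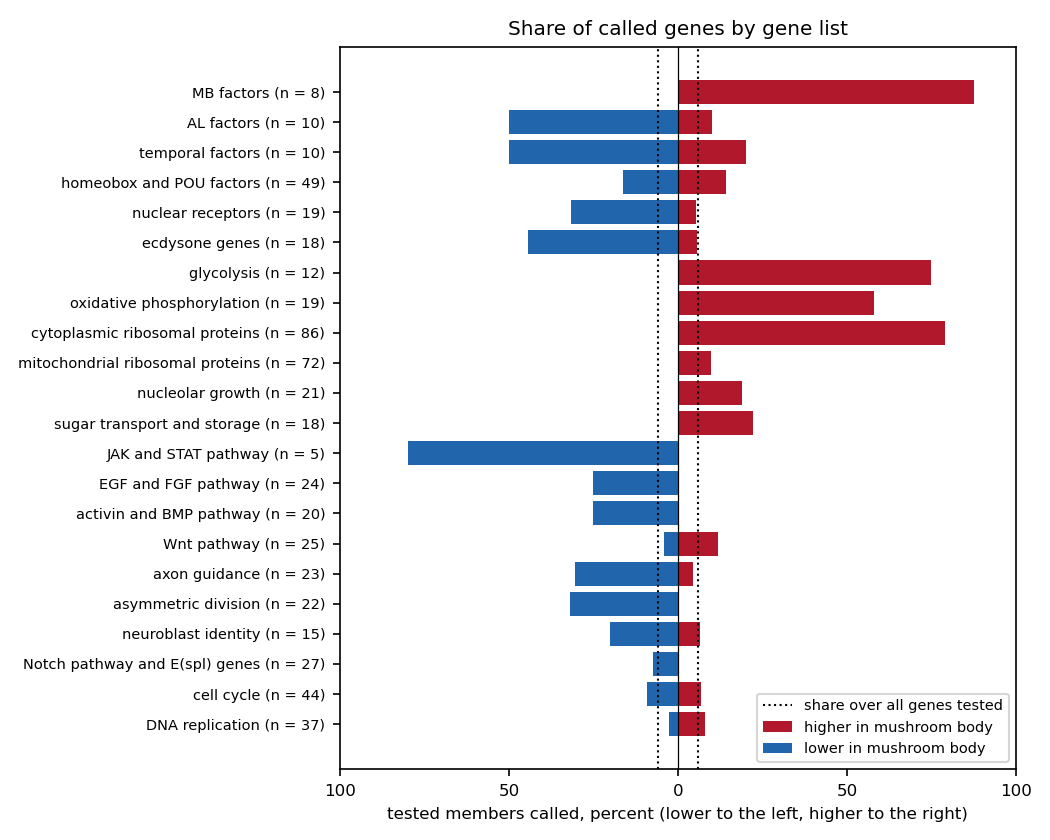
Percent of the tested members of 22 gene lists called lower (blue, left) or higher (red, right) in mushroom body against antennal lobe neuroblasts, with the number tested in brackets. Dotted lines mark the shares over all 9249 genes, 5.96% lower and 5.88% higher. Lists were chosen with results known, and short lists rest on few genes.

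Surface genes that guide and sort neurites differed in both directions. Of 23 axon guidance genes 7 were lower and 1 higher. The netrin receptor genes fra and unc-5 both fell (log2 -1.07 ± 0.17, adjusted p = 8.83e-05, and log2 -1.30 ± 0.18, adjusted p = 1.45e-05), and Ten-m, a teneurin of synaptic partner matching, was higher at 133, 128 and 158 CPM against 71.6, 50.2 and 61.1 CPM, log2 1.19 ± 0.22 (adjusted p = 0.000653). In the adhesion list the cadherin gene CadN rose by log2 1.97 ± 0.55 (adjusted p = 0.0187), a call lost in 5 settings, while Fas3 fell (log2 -1.99 ± 0.47, adjusted p = 0.0105) as did Nrg, the neuroglian gene (log2 -1.01 ± 0.15, adjusted p = 6.42e-05). The receptor gene Toll-6 was at 35.6, 44.4 and 33.5 CPM against 6.72, 7.99 and 4.64 CPM, log2 2.55 ± 0.32 (adjusted p = 3.23e-06). Guidance genes are long (median relative length 3.82), and 5 were lower and 1 higher with the length trend removed, 3 and 2 with length and GC trends removed (median -0.02). Leaving out mushroom body replicate 2 or antennal lobe replicate 1 gave 2 lower, mushroom body replicate 1 or 3 gave 4, and limma on TPM or ERCC scaling 3. In the fit of 18 libraries 8 of the 23 were lower in standard, 6 in waited and 3 in washed mushroom body libraries, with 1, 0 and 1 higher.

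Genes of asymmetric division, by which a neuroblast keeps its own fate and passes determinants to its daughter, had 7 of 22 lower and none higher (median log2 -0.35), with 4 lower without mushroom body replicate 1 and 2 with ERCC scaling. The list's genes have a median relative length of 2.65. With the length trend removed 6 were lower and 1 higher (median -0.16), and with length and GC trends removed 5 were lower and 2 higher. In the fit of 18 libraries 8 were lower in standard, 5 in waited and 3 in washed mushroom body libraries. The RNA-binding protein gene stau was at 823, 692 and 855 CPM against 1729, 1729.9 and 2127 CPM, log2 -1.24 ± 0.13 (adjusted p = 2.4e-07), and numb at 335, 272 and 325 CPM against 642, 709 and 650.3 CPM. Both were lower in every mushroom body library. The polarity kinase gene aPKC fell (log2 -0.93 ± 0.17, adjusted p = 0.00062) as did brat, a growth brake of the daughter (log2 -0.43 ± 0.12, adjusted p = 0.0259). The brat call was lost in 7 settings and its sign turned with the length and GC trends removed. The RNA-binding protein gene msi, which overlaps ymp, was at 599, 505 and 599 CPM against 1786, 1674 and 1560.3 CPM, log2 -1.56 ± 0.15 (adjusted p = 9.22e-08).

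Of 15 neuroblast identity genes 3 were lower and 1 higher, with 6 lower when the 6 libraries were fitted alone and 1 with ERCC scaling. The proneural gene ase, which marks type I neuroblasts, fell (log2 -1.07 ± 0.19, adjusted p = 0.000388) at 118, 113 and 125 CPM against 319, 214 and 213 CPM. In type II neuroblasts, which are known to lack it, ase averaged 4.50 CPM. The zinc finger gene klu fell (log2 -0.89 ± 0.17, adjusted p = 0.000753). Cell cycle genes had 3 of 44 higher and 4 lower, 15.9% against 11.8% of all genes, with 5 higher and 3 lower without antennal lobe replicate 3. With ERCC scaling none was higher by edgeR and 2 were lower, and with length and GC trends removed 4 were higher and 6 lower. The cyclin gene CycE fell, at 513, 442 and 611 CPM against 1022, 1087 and 1227 CPM, log2 -1.09 ± 0.16 (adjusted p = 2.68e-05), as did Cks30A (log2 -0.97 ± 0.14, adjusted p = 3.87e-05), while the Aurora B kinase gene ial rose by 1.39 ± 0.31 (adjusted p = 0.00336), a call lost with ERCC scaling. DNA replication genes, 3 of 37 higher and 1 lower, were called at 10.8%, close to the background, with 1 higher without mushroom body replicate 2.

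Among the genes with the largest changes were several outside these lists. Cyp28a5, a cytochrome P450 gene, had 328 counts in mushroom body and 1 in antennal lobe libraries, a ratio of 615-fold (counting interval 109.7 to 24374). The lipid phosphate phosphatase gene wun2, whose product guides germ cells in embryos, was at 55.8, 69.5 and 54.8 CPM against 0.686, 0.428 and 0.125 CPM, log2 7.14 ± 0.81 (adjusted p = 5.7e-06). The cuticle protein family gene Cpr76Bc rose by log2 6.14 ± 0.81 (adjusted p = 1.72e-05), and the genes CG15414, CG15270 and CG5630 by 5.37 ± 0.68, 5.15 ± 0.67 and 5.10 ± 0.72, all without overlap. Among abundant genes Msp-300 (chromosome 2L, 5151749 to 5186528), a nesprin that anchors nuclei, was at 5524, 5871 and 10023 CPM against 929, 866 and 892 CPM, log2 2.99 ± 0.34 (adjusted p = 0.000346), against means of 432 CPM in type II and 446 CPM in pooled neuroblasts.

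The noncoding gene CR43283 (chromosome 3R, 7073825 to 7081845) took 7.16 ± 0.440% of gene counts in mushroom body and 19.6 ± 1.03% in antennal lobe libraries (SD, n = 3), log2 -1.74 ± 0.13 (adjusted p = 1.98e-08). Leaving it out of library sizes and tests gave 504 genes higher and 584 lower. The chaperone gene Hsp83 and the tubulin genes alphaTub84B and betaTub56D rose by log2 0.81 ± 0.13, 0.71 ± 0.10 and 0.40 ± 0.10, each not called with ERCC scaling, where betaTub56D was at -0.01. The RNA-binding protein gene Hrb27C and the chromatin gene Df31 fell (log2 -0.53 ± 0.12 and -0.32 ± 0.10), and each also lost its call with that scaling. The Df31 call was lost in 8 of 21 settings, among them each that left out 1 library, and the betaTub56D call in 5.

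Markers of other cells were called about as often as genes in general. Of 26 tested markers 2 were higher and 1 lower, 11.5% against 11.8% of all genes. The log2 change was beyond 1 in either direction for 9 of the 26, with a range of -4.24 to 5.94. Many of these markers had few counts, so a missing call does not show equal levels. The actin gene Act57B, a muscle marker, was at 15.6, 9.17 and 11.7 CPM against 0.137, 0.143 and 0.251 CPM, log2 5.94 ± 1.25 (adjusted p = 0.002), and the glutamate transporter gene Eaat1 rose by log2 0.66 ± 0.15 (adjusted p = 0.00476). The scavenger receptor gene crq fell (log2 -1.02 ± 0.28, adjusted p = 0.0184), a call lost in 6 of 21 settings. The neuron gene elav was at 279, 218 and 253 CPM against 302, 295 and 304 CPM and was not called (adjusted p = 0.329). The pro-apoptotic gene W, or hid, had 52 counts in mushroom body libraries and 0 in antennal lobe libraries, at least 32.5-fold higher with the antennal lobe group set at 3 counts. The apoptosis inhibitor gene Iap2 rose as well, by log2 1.42 ± 0.33 (adjusted p = 0.00533), and the caspase gene Ice fell (log2 -1.06 ± 0.24, adjusted p = 0.00448).

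Spike-in counts gave a measure of RNA per cell. Gene counts per ERCC count and cell were 1.55, 1.04 and 1.26 in mushroom body and 2.20, 1.85 and 2.12 in antennal lobe libraries, means of 1.29 ± 0.259 and 2.06 ± 0.188 (SD, n = 3). Every antennal lobe library was above every mushroom body library, 1.62-fold on the means of log values, with p = 0.1 in a two-sided exact permutation test, the smallest p that 3 against 3 allows. Less RNA per cell and fewer cells than recorded in a tube cannot be told apart. Waited mushroom body libraries stood at 1.13 to 1.78 and washed ones at 2.22 to 2.38.

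All 3 kinds of mushroom body library share the antennal lobe libraries as their comparison. Of 11 temporal factors tested in that fit, 5 were lower in each kind, while 2 were higher in standard, 1 in waited and 1 in washed libraries. The log2 change of lin-28 was 1.46 (adjusted p = 0.0358) in standard, 0.78 (adjusted p = 0.276, not called) in waited and 1.64 (adjusted p = 0.0266) in washed libraries. The log2 change of retn was 6.82 in standard, 6.66 in waited and 6.88 in washed libraries, that of Syp -3.26, -3.0 and -2.88, that of br -2.73, -2.39 and -2.45 and that of Tret1-1 3.77, 3.72 and 3.15. For mid the change was -9.36, -6.47 and -6.70, and for ems -7.33, -5.29 and -6.58. The median of slp1 and slp2 was -8.23, -5.81 and -6.22. None of mid, ems, slp1 and slp2 was called between standard and waited or washed libraries by edgeR. The antennal lobe factor SoxN stood at 5.24 to 11.5 CPM after the wait and 5.25 to 14 CPM after the washes, against 0.978 to 3.28 CPM in standard libraries and 487 to 526 CPM in antennal lobe. The SoxN difference between standard and washed libraries was called (log2 -2.0, with 0.711% of all genes called, adjusted p = 0.0433), and that between standard and waited ones was not (log2 -1.85, adjusted p = 0.24).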

How the data were processed

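The deposited table holds raw read counts per gene for 15339 fly genes, made by the authors. Per the submitters' processing notes the tools include HTSeq 0.6.1p1, STAR 2.4.0i, Bowtie2 2.1.0 and cutadapt 1.7.1, and the builds dm3 and mm10. TPM values deposited by the authors served relative gene lengths and an alternative test. Entries without a gene stayed out: reads outside genes made up 8.89 to 11.6% and ambiguous reads 1.09 to 1.39% of counts. The notes give no strand setting, so overlapping genes and near-identical copies were not separated. ERCC spike-in counts were 0.388 to 0.945% of counts.

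Counts of 12 standard neuroblast libraries (mushroom body, antennal lobe, type II and pooled, 3 each) were fitted with edgeR 4.0.16 in R 4.3.3 (filterByExpr, TMM scaling, robust quasi-likelihood), with 8 residual degrees of freedom and a biological coefficient of variation of 0.406. A log2 change is mushroom body minus antennal lobe, with its SE after ±. Adjusted p is Benjamini-Hochberg over all 9249 genes, called below 0.05. CPM are scaled over the 12 libraries, and values of waited and washed libraries come from a fit of 18. Where a group had 1 to 3 counts, a depth-scaled ratio with a 95% Poisson interval is given, and where it had 0, a limit that sets the group at 3 counts. Both cover counting error alone. The code was tested on simulated data. Replicates of a group differed by more than sampling noise (chi-square over degrees of freedom 9.75 to 19.8).

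Named were the 10 called genes that changed most each way, given non-overlapping libraries and a mean of 20 CPM or more in either group, the 5 most abundant called genes in each direction, lineage markers, and up to 4 called members in each direction of 43 gene lists, or every member of 6 short ones. Other names stand in a list's count. The libraries, lists and rules were chosen with earlier results of these data known, and 2 lists (sugar transport and storage, growth brakes and starvation response) after values were seen. Alternatives were 21: other scalings and filters, DESeq2 1.42.0, limma 3.58.1 on log2(TPM + 1), other sets of libraries, a replicate block, leaving out each library, thinning, leaving out CR43283, and removing length and GC trends. Of these, 5 were chosen after seeing the data: thinning, leaving out CR43283, leaving out the type II libraries, removing the length trend, and removing length and GC trends.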

Additional observations from a re-analysis of the deposited data

How the results depend on the processing

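Counts of called genes, 544 higher and 551 lower, stayed within 1.5 times under the alternatives except spike-in scaling and the loss of a library. ERCC scaling per cell gave 70 higher and 212 lower. Leaving out 1 library gave 325 to 449 higher and 324 to 440 lower, with 325 and 324 without mushroom body replicate 2 and 342 and 404 without antennal lobe replicate 1. DESeq2 gave 729 and 669, limma on TPM 616 and 453. Removing the length trend gave 496 and 502, of which 386 and 416 were shared with the first set. A set of 49 higher and 143 lower genes was called in all 21 alternatives, and 185 and 213 in all but ERCC scaling. Of 3379 values for 161 called genes, 2965 kept direction and call, 412 lost the call and 2 changed sign: betaTub56D to -0.012 with ERCC scaling and brat to 0.024 with length and GC trends removed. Among genes not called, chinmo moved to 0.13 with the length trend and 0.27 with both trends removed, elav to 0.018 and 0.16, and mamo ranged from -1.83 to 0.44 when 1 library was left out, the latter without antennal lobe replicate 3. The cause was not tested. A fit with the replicate number as a block gave 530 and 542. Same-numbered libraries did not deviate together (correlations -0.0085, -0.0014 and -0.04). The labels do not say whether they shared a preparation, and these values cannot settle it. Mushroom body libraries were the shallower, which limits genes of few counts, and thinning the antennal lobe libraries to the mean mushroom body depth gave 521 and 519.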

Other observations

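Several gene groups outside the main account differed by a few members. Of 21 nucleolar growth genes, which build ribosomes, 4 were higher in mushroom body neuroblasts and none lower (median log2 0.32), among them the snoRNP protein gene Nop56 (log2 0.79 ± 0.18, adjusted p = 0.00342) and the RNA polymerase I subunit gene RpI1 (log2 0.59 ± 0.15, adjusted p = 0.0116). None of the 4 was called with ERCC scaling. Leaving out 1 library gave 2 calls without any 1 mushroom body library or antennal lobe replicate 1, 1 without antennal lobe replicate 2 and 6 without antennal lobe replicate 3. In the fit of 18 libraries 2 were higher in waited mushroom body libraries and none, by edgeR, in washed ones. Of 18 heat shock and chaperone genes 3 were higher, Hsp83 and the mitochondrial chaperone genes Hsc70-5 (log2 0.86 ± 0.14, adjusted p = 0.000117) and Hsp60 (log2 0.72 ± 0.14, adjusted p = 0.00131), and none was lower. DESeq2 called 5 higher, the 6 libraries alone 6 and no filter on low counts 8. GstD1, a glutathione transferase gene of the oxidative stress response, was at 686, 742 and 752 CPM in mushroom body and 404, 406 and 367 CPM in antennal lobe libraries, with no overlap (log2 0.89 ± 0.13, adjusted p = 5.58e-05).

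Chromatin regulators were called at 13.9% of 36, near the 11.8% of all genes. Su(z)2 was higher (log2 1.01 ± 0.31, adjusted p = 0.0374) and Pc, a Polycomb reader of histone marks, lower (log2 -0.67 ± 0.20, adjusted p = 0.0304), and both calls were lost in several settings. In the Hedgehog list disp, which releases the ligand, was higher (log2 1.19 ± 0.31, adjusted p = 0.0109) and rdx, which marks the pathway's transcription factor for degradation, lower at 68.2, 64.2 and 66.7 CPM against 175, 168 and 156 CPM (log2 -1.32 ± 0.18, adjusted p = 1.52e-05). Of 30 neuronal and synapse genes 2 were higher and 4 lower, with 2 lower without mushroom body replicate 2 or antennal lobe replicate 1 and none by edgeR with length and GC trends removed. The amyloid precursor-like gene Appl was higher (log2 1.33 ± 0.34, adjusted p = 0.0114), and the calcium channel gene cac was lower (log2 -1.12 ± 0.28, adjusted p = 0.00795). The surface receptor gene dpr17 was at 2.02, 4.59 and 1.87 CPM against 46.1, 45.1 and 32 CPM (log2 -3.84 ± 0.73, adjusted p = 0.00162), and the nuclear receptor gene eg at 0.289, 0.483 and 8.19 CPM against 34.4, 44 and 44.5 CPM (log2 -3.72 ± 0.79, adjusted p = 0.00772).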
